A study of Mus musculus with 4 samples.

Results

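Genes that move iron out of cells, into cells and into storage were described in Beta-TC-6 cells, a mouse line that makes insulin and was derived from an insulinoma. The list named 10 genes: Slc40a1, Tfrc, Fth1, Ftl1, Aco1, Ireb2, Slc11a2, Trf, Hfe and Hmox1. A gene was taken only where a probe set carried its symbol and no other, which held for 8 of the 10, out of 22180 genes named in this way. All 6 probe sets of Ftl1, the ferritin light chain, also carry the symbols Ftl1-ps2 or Ftl2-ps. The single probe set of Trf, which encodes the plasma iron carrier transferrin, also carries Srprb. Ftl1 and Trf were therefore not analysed here.

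Cells were transfected with siRNA against NF90, a double-stranded RNA-binding protein (siNF90, 2 arrays), or with a negative control siRNA (siNTC, 2 arrays), and total RNA was hybridized to whole-transcript arrays. The siNF90 reagent was a mixture of 3 duplexes. Both groups were the same line, grown in 25 mM glucose and 15% serum, and both had received the lipid transfection reagent. How long after transfection the cells were harvested is not stated in the labels. The level of NF90 itself is not analysed here. The labels do not state that the 2 arrays of a group are separate cultures. Each p-value therefore rests on the spread among the arrays, part or all of which may be technical.

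Cells take up iron by binding transferrin to the transferrin receptor, release it in the endosome and carry it across the endosomal membrane. They keep what is not used inside ferritin and export it through ferroportin, the only iron exporter known in mammals. When iron is scarce, the iron regulatory proteins bind stem-loops called iron-responsive elements, which blocks translation of ferritin and ferroportin mRNA and protects the transferrin receptor mRNA from decay. Beta cells are known to be sensitive to iron overload, because their antioxidant defences are low. The arrays measured RNA and say nothing about translation or protein.

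Of the 8 genes, 6 had a lower mean in siNF90 and 2 a higher one, where 10153 of all 22180 genes were lower and 11773 higher. The exporter Slc40a1, the receptor Tfrc and the endosomal transporter Slc11a2 stood lowest against siNTC, by log2 differences of -0.96, -0.41 and -0.58, and the haem-degrading enzyme Hmox1 stood higher by 0.49. Ferritin heavy chain and the iron regulatory protein Aco1 lay within 0.07 of siNTC. The list was chosen by results of the same contrast, in which the log2 difference of Slc40a1 (siNF90 minus siNTC) was known to be among the larger downward ones. The values are therefore a description, and no test is read from them. The median difference of the 8 genes was -0.18, beside 0.02 over all 22180 genes.

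**Figure D1:**
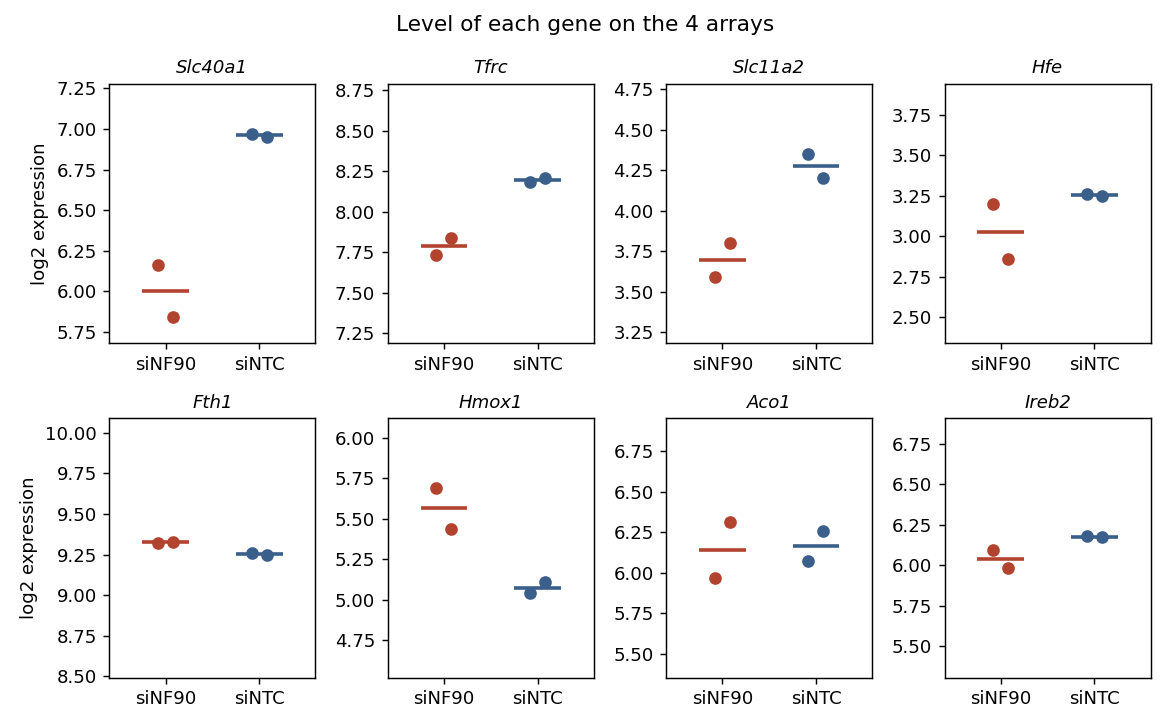
Level of each of the 8 genes (vertical axes, log2 expression, each panel spanning the same range of log2 units) on the siNF90 arrays (left) and the siNTC arrays (right). Points are arrays and bars are group means. In Slc40a1, Tfrc, Slc11a2 and Hmox1 the groups lie clearly apart, while in Aco1 they overlap.

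Slc40a1 (probe set 17222777) encodes ferroportin. Its log2 level was 6.16 and 5.84 on the siNF90 arrays, against 6.97 and 6.95 on the siNTC arrays. The groups did not overlap, and the siNF90 arrays were further from each other than the siNTC arrays. The means were 6 ± 0.23 in siNF90 and 6.96 ± 0.01 in siNTC (log2, SD, n = 2 each), which is 1.95-fold lower in siNF90, or 51.4% of the siNTC level. Single siNF90 arrays differed from single siNTC arrays by -1.13 to -0.79 (log2), while the median gap between the arrays of a group was 0.15 over all genes. Among the 11093 genes whose mean lay at or above the median level of all genes (1.84), Slc40a1 had rank 21 from the lowest difference. Its place among the larger downward differences was known when the list was chosen, so the rank is only a description.

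Tfrc (probe set 17324835) encodes transferrin receptor 1, through which most cells take up iron. Its log2 level was 7.73 and 7.84 in siNF90, against 8.18 and 8.21 in siNTC, so that the groups did not overlap. The difference of -0.41 ± 0.12 (log2, SE of the fit) is 1.33-fold lower in siNF90. The transcription of Tfrc is known to respond to low oxygen as well as its mRNA stability to iron. The bases before the more upstream of its annotated starts are shown because Tfrc is the only gene among the 4 with the largest differences that has an entry in the promoter table used here. They come from RefSeq (GRCm38.p6, plus strand, chr16:32608646-32608895), and the capitals mark the core of the hypoxia response element, read on the minus strand.
Tfrc: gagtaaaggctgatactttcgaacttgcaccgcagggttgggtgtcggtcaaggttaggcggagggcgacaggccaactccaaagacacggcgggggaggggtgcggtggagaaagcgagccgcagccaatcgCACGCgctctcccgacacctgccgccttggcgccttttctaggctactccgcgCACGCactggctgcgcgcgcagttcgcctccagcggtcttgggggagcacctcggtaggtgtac

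The core was searched as ACGTG and GCGTG on both strands in the 250 bases before each annotated start. The Tfrc window held 2 matches, both of GCGTG, at 117 to 113 and at 64 to 60 bases before the start, and the window of a second, downstream start of Tfrc held 3. At least 1 match was present in 38.6% of the 32851 promoter windows and at least 2 in 16.7%, so a match is common and is only a description of the letters. Of the other genes of the list, Fth1, Ftl1, Aco1, Ireb2 and Hfe have a window, and 1 match was found in a window of Fth1 and in that of Ftl1. Slc40a1, Slc11a2, Hmox1 and Trf have no entry in the table.

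Slc11a2 (probe set 17321683) encodes DMT1, which carries ferrous iron out of the endosome. Its log2 level was 3.59 and 3.8 in siNF90, against 4.35 and 4.2 in siNTC. The siNF90 arrays were again the lower pair, by 0.4 at the closest. The difference was -0.58 ± 0.14 (log2, SE), 1.49-fold lower in siNF90. Some Slc11a2 transcripts end with an iron-responsive element and others do not, and the probe set does not tell them apart in the table.

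Hfe (probe set 17291211) encodes a relative of the class I histocompatibility proteins that binds transferrin receptor 1 and is mutated in hereditary haemochromatosis. Its log2 level was 3.2 and 2.86 in siNF90, against 3.26 and 3.25 in siNTC. The second siNF90 array carried most of the difference of -0.23, which was -0.06 without that array and -0.4 without the first. Its 95% interval ran from -0.6 to 0.15 and held 0.

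Fth1 (probe set 17357418) encodes the ferritin heavy chain, which oxidizes iron for storage. Its log2 level was 9.32 and 9.33 in siNF90, against 9.26 and 9.25 in siNTC. The arrays of a group agreed within 0.01 and the groups did not overlap, yet the difference was 0.07, a 1.05-fold higher mean in siNF90. The 95% interval of the fit ran from -0.21 to 0.35, since the fit does not take the small gap between 2 arrays at face value but draws on the spread of all genes. Ferritin genes have many processed copies in the mouse genome, and whether its probes also read such copies was not tested.

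The iron regulatory proteins, which sense iron and bind the iron-responsive elements, differed little. Aco1 (probe set 17412730), which acts as cytosolic aconitase when it holds an iron-sulphur cluster, had log2 levels of 5.97 and 6.31 in siNF90, against 6.07 and 6.26 in siNTC. The groups overlapped fully, and the difference of -0.03 (95% interval -0.42 to 0.37) turned to 0.15 without the first siNF90 array and was -0.2 without the second. Ireb2 (probe set 17517424), which is degraded when iron is plentiful, had levels of 6.09 and 5.98 in siNF90, against 6.18 and 6.17 in siNTC. Its groups did not overlap, but its difference was only -0.14 (95% interval -0.43 to 0.15), and it was -0.09 without the second siNF90 array.

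Hmox1 (probe set 17502573) encodes haem oxygenase 1, which opens the haem ring and frees its iron, and which is induced by haem and by oxidative stress. Its log2 level was 5.69 and 5.44 in siNF90, against 5.04 and 5.11 in siNTC. The siNF90 arrays were the higher pair, by 0.33 at the closest. The difference was 0.49 ± 0.14 (log2, SE), 1.4-fold higher in siNF90, with rank 399 from the highest among the 11093 genes at or above the median level.

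**Figure D2:**
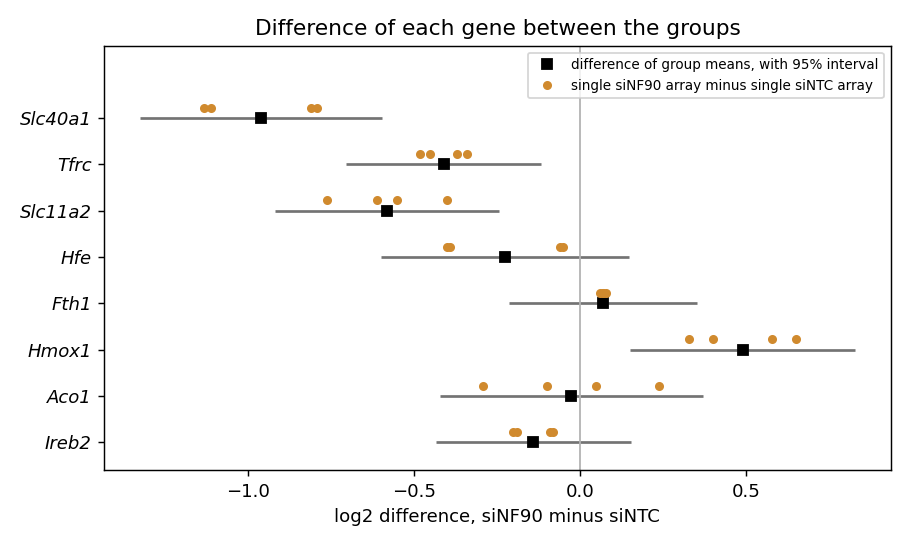
Difference between the groups for each of the 8 genes (horizontal axis, siNF90 minus siNTC, log2). Squares are differences of group means with the 95% interval of the limma fit, and dots are the 4 differences between single arrays. The intervals of Slc40a1, Tfrc and Slc11a2 lie below 0 and that of Hmox1 above it, without adjustment for the number of genes, and the other 4 hold 0.

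With limma and Benjamini-Hochberg adjustment over all 22180 genes, 0 of the 8 genes and 0% of all genes passed at an adjusted p under 0.05. At an unadjusted p under 0.05 there were 3 lower genes (Slc40a1, Tfrc and Slc11a2), where 4.41% of all genes were called lower. Hmox1 was the 1 higher gene, where 5.87% of all genes were called higher. When the variance prior was allowed to vary with level, limma called 0.455% of all genes in either direction and 0.221% lower, and Slc40a1 and Tfrc were among the lower ones. A log2 difference of at least 1 was reached by 0 of the 8 genes and by 0.18% of all genes. In 7 of the 8 genes, all but Aco1, the arrays of the groups did not overlap, where this held in 39.8% of all genes. All 8 are among the 11093 genes at or above the median level, and in 5305 of those the groups did not overlap. Of those 11093 genes, 683 were lower and 906 higher at an unadjusted p under 0.05 (limma). The prior that varies with level called 49 of them lower. The same contrast stood behind the choice of the genes, so nothing is read from these counts. With 2 arrays in each group, the smallest two-sided p of an exact permutation test is 0.333, so none was run.

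**Figure D3:**
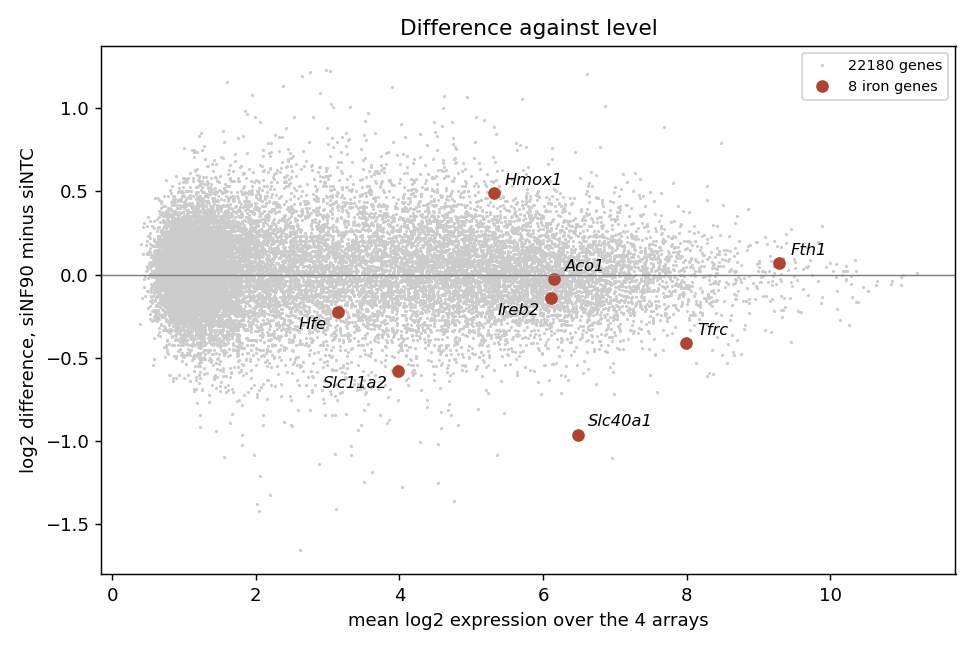
Difference between the groups (vertical axis, siNF90 minus siNTC, log2) against the mean log2 expression over the 4 arrays (horizontal axis) for 22180 genes (grey) and the 8 iron genes (red, named). Slc40a1 and Tfrc lie at the lower edge of the genes of their level, and Fth1, Aco1 and Ireb2 within the body of the cloud.

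The other genes of iron and haem handling were 90 genes in 8 roles, and 80 of them were measured. They were listed from textbook roles and not by how they moved, but with earlier results of these data known. No such gene passed limma's test over all genes (0 higher and 0 lower, smallest adjusted p = 0.36), and at an unadjusted p under 0.05 there were 5 higher and 3 lower, where 5.87% of all genes were higher and 4.41% lower. Of the 80, 49 had a higher mean in siNF90, 29 a lower one and 2 an equal one, and the median difference was 0.07, beside 0.02 over all genes. Over all 22180 genes, 11773 had a higher mean in siNF90 and 10153 a lower one. Only 57 of the 80 reached the median level of all genes in either group, and the counts include the dimmer genes. The arrays of the groups did not overlap in 35 of the 80 genes, where this held in 39.8% of all genes. With the variance prior that varies with level, 1 gene of the 80 was called, Hspa9, which was lower, where 0.221% of all genes were called lower.

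Of the 11 measured ferroxidases, hepcidin genes and regulators of hepcidin, only Neo1 and Erfe reached the median level of all genes in either group. Neo1, a receptor that takes part in bone morphogenetic protein signalling to hepcidin, had a mean of 7.28 in both groups, and Erfe, the erythroid hormone that lowers hepcidin, of 1.93 in both. Hepcidin itself, the peptide that binds ferroportin and has it degraded, is encoded by Hamp, which stood at 0.79 and 0.5 in siNF90, against 0.62 and 0.51 in siNTC. The ferroxidases that act beside ferroportin were as dim, with Heph at 0.98 on both siNF90 arrays and at 1.06 and 1.1 in siNTC, and Cp at 0.75 and 0.6 in siNF90 and at 0.7 and 1.16 in siNTC. These 3 genes lay below the median of every array (1.65 to 1.68), and the table holds no measure of background that would call them present or absent. They were chosen for their role with ferroportin after their values were seen.

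Among 15 other genes of uptake and traffic, 10 had a higher and 5 a lower mean in siNF90, with a median difference of 0.07 and 0 past the test. Only 7 of the 15 reached the median level of all genes in either group, and the counts include the dimmer genes. Slc39a8, a zinc transporter that also carries iron and manganese, stood at 6.92 and 6.96 in siNF90, against 6.32 and 6.5 in siNTC. That is a difference of 0.53 ± 0.13 (log2, SE) and 1.44-fold, and the groups did not overlap (limma, adjusted p = 0.36). Slc25a28, a mitochondrial iron importer (mitoferrin 2), stood at 5.01 and 4.88 in siNF90, against 3.95 and 4.6 in siNTC. Its difference of 0.67 ± 0.22 went with a wide gap between the siNTC arrays (limma, adjusted p = 0.439).

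Genes that handle ferritin and the iron regulatory proteins did not move one way. Of 6 measured, 3 were higher and 3 lower, with a median of 0.03 and 0 past the test. The groups did not overlap in 5 of the 6, where this held in 39.8% of all genes. Pcbp1, an RNA-binding protein that also delivers iron to ferritin, stood at 6.4 and 6.16 in siNF90, against 5.88 and 6.03 in siNTC, a difference of 0.33 ± 0.14. Fbxl5, the ubiquitin ligase subunit that marks the iron regulatory proteins for degradation, differed by -0.13 ± 0.12. Of 4 measured genes among the other mRNAs known to hold an iron-responsive element and the oxygen-sensing factors, 3 were higher and 1 lower (median 0.13, 0 past the test). Cdc14a, a phosphatase, differed by 0.24 ± 0.2 with overlapping groups, and Cdc42bpa, a kinase, by 0.08 ± 0.13.

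Haem genes had 10 of 14 members higher and 4 lower, with a median difference of 0.08 and 0 past the test. Fech, which inserts iron into the haem ring, stood at 4.72 and 5.09 in siNF90, against 5.35 and 5.39 in siNTC, a difference of -0.47 ± 0.16 (limma, adjusted p = 0.439). Alad, an early enzyme of haem synthesis, stood at 4.74 and 4.96 in siNF90, against 4.54 and 4.33 in siNTC, a difference of 0.42 ± 0.15 (adjusted p = 0.442). The groups did not overlap in either gene. Hmox2, the constitutive haem oxygenase named beside Hmox1 after its value was seen, differed by 0.03 ± 0.12.

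Genes of the pathway of Nrf2 and Bach1, an activator and a repressor of Hmox1, did not all move one way. Of 11 regulators and other targets, 6 were higher and 5 lower, with a median of 0.1 and 0 past the test. The list mixes activators, repressors and targets, so these counts give no direction for the pathway. Srxn1, which repairs oxidized peroxiredoxins, differed by 0.37 ± 0.2, at 4.01 and 3.58 in siNF90 and at 3.61 and 3.24 in siNTC, so the groups overlapped. Keap1, which holds Nrf2 inactive, differed by 0.19 ± 0.18, also with overlapping groups. Bach1, named after its values were seen, had 4.29 and 3.14 in siNF90, against 3.91 and 3.8 in siNTC, so that its siNF90 arrays lay on either side of siNTC.

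Hspa9 is a gene of iron-sulphur cluster assembly. It encodes the mitochondrial Hsp70 that takes part in protein import and in the transfer of clusters, and it stood at 8.25 on both siNF90 arrays, against 8.75 and 8.71 on the siNTC arrays. Its difference of -0.48 ± 0.12 is 1.39-fold lower in siNF90, with a limma adjusted p of 0.0153 with that prior and of 0.36 without it. Of the 16 measured genes of this role, 11 were higher and 5 lower, with a median of 0.08 and 0 past the test. Glrx5, a glutaredoxin that passes clusters on, differed by 0.34 ± 0.19, and the first siNF90 array was apart from the other 3 at 6.23. Lyrm4, a partner of the cysteine desulphurase that supplies sulphur for clusters, had a difference of the same size in the other direction, -0.34 ± 0.14. It stood at 5.86 and 6.01 in siNF90, against 6.17 and 6.38 in siNTC, and its groups did not overlap.

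Metal-responsive genes had means lower by little, in 3 of 3 measured members, with 0 past the test. Mtf1, named after its values were seen, differed by only -0.015 with overlapping groups. It stood at 4.43 and 4.42 in siNF90, against 4.38 and 4.5 in siNTC. Mt1 and Mt2 encode metallothioneins, which bind zinc and copper. Mt1 stood at 8.62 and 8.6 in siNF90, against 8.7 and 8.81 in siNTC, and its difference was -0.15 ± 0.12. Mt2 differed by -0.14 ± 0.12.

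**Figure D4:**
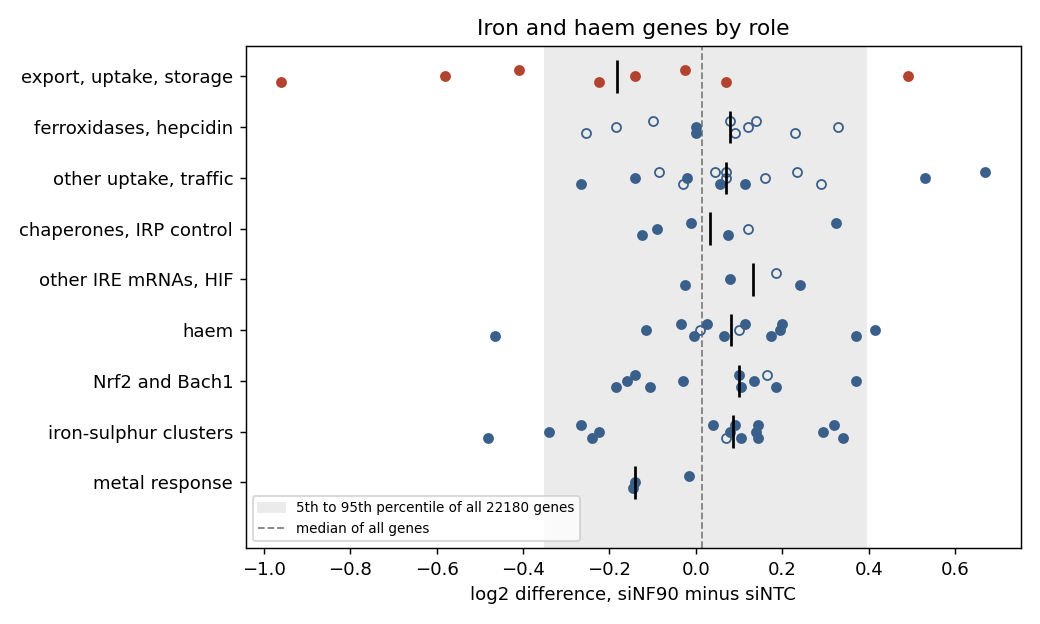
Difference between the groups (horizontal axis, siNF90 minus siNTC, log2) for the 8 genes of iron export, uptake and storage (red) and for 80 other iron and haem genes by role (blue). Each point is a gene, open where both group means lie under the median level of all genes, short bars are medians, and the grey band runs from the 5th to the 95th percentile of all genes. Slc40a1 lies furthest from the band, and the medians of 7 of the 8 other roles lie above 0, as does that of all genes (0.02).

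The labelled cell type was checked against its markers. All 12 measured beta cell markers reached the median level of all genes in at least 1 group, among them Iapp (islet amyloid polypeptide) at 10.3 ± 0.04 in siNF90 and 10.47 ± 0.16 in siNTC and Ins2 (insulin) at 7.95 ± 0.09 in siNF90 and 7.99 ± 0.01 in siNTC. The 12 did not move one way: 5 were higher and 7 lower in siNF90. Slc2a2, a glucose transporter of beta cells, stood at 4.78 and 4.86 in siNF90, against 6 and 5.8 in siNTC, a difference of -1.08 ± 0.13 (limma, adjusted p = 0.342, and 0.0153 with the prior that varies with level). The transcription factors Nkx6-1 and Mafa were higher, by 0.45 ± 0.12 and 0.38 ± 0.15, and neither passed. The summed linear level of the 12 was 3700 and 3730 on the siNF90 arrays, against 4120 and 3920 on the siNTC arrays. Macrophages are rich in Slc40a1 and Hmox1. Of 9 macrophage markers, 7 lay below the median of every array on all 4 arrays, among them Adgre1, Ptprc and Lyz2. The summed linear level of the 9 was 40.5 and 39.6 on the siNF90 arrays, against 26.2 and 26.8 on the siNTC arrays. Cd68, the only one of the 9 at the median level of all genes in both groups, had 4.44 and 4.48 in siNF90, against 3.32 and 3.35 in siNTC. Its difference was 1.125 ± 0.12 (limma, adjusted p = 0.342, and 0.0217 with the prior that varies with level). Without Cd68 the sums were 18.8 and 17.3 on the siNF90 arrays, against 16.2 and 16.6 on the siNTC arrays. These are sums of dim genes. Of the 9 markers, 5 were higher and 4 lower in siNF90. Csf1r stood at 1.95 and 1.07 in siNF90, against 1.05 and 1.23 in siNTC. Cd163 stood at 1.36 and 1.53 in siNF90, against 0.96 and 1.02 in siNTC, without overlap. Both had means under the median level of all genes in both groups. Of 5 hepatocyte markers, 3 lay below every array's median, and Ttr, which islet cells also express, stood at 10.4 ± 0.04 in siNF90 and 10.3 ± 0 in siNTC. The fifth, Serpina1a, lay above every array's median, at 2.18 and 2.09 in siNF90, against 2.28 and 2.22 in siNTC. Both measured erythroid markers, Epor and Klf1, lay below every array's median. The part of these markers in the differences above was not tested, and fewer cells of a type cannot be told apart from less RNA per cell.

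The genes most like Slc40a1 were sought among the 11092 others at or above the median level, by the Euclidean distance between their 4 log2 values after each gene was centred on its own mean. The nearest was Arf5, a small GTPase of the Golgi, at a distance of 0.07. It stood at 4.54 and 4.18 in siNF90, against 5.25 and 5.28 in siNTC, 1.87-fold lower. Next came Mfsd4b4, at 0.14, with 2.73 and 2.39 in siNF90 against 3.59 and 3.68 in siNTC, and the microRNA gene Mir483, at 0.15, with 3.41 and 3.2 in siNF90 against 4.19 and 4.1 in siNTC. All 3 share with Slc40a1 the lower second siNF90 array. With 4 arrays such likeness is a description, and it has no p.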

How the data were processed

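Expression was measured in 4 arrays of Beta-TC-6 RNA. The authors deposited log2 values for 41345 probe sets per array, and the submitters' processing notes name Transcriptome Analysis Console. How background, normalization and summarization were done, and on which genome build, is not given in the sources used here. The log base is not stated either; 5 to 10 values per array lie above 11.09, the largest natural log a 16-bit scanner could give, so base 2 was taken. Precision is limited by the number of arrays.

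Genes come from the platform annotation, in which 23521 probe sets had 1 symbol; the 1814 with several were not named. The probe set with the highest mean stood for its gene. The siNF90 minus siNTC contrast was fitted without a filter with limma 3.58.1 (R 4.3.3, lmFit and eBayes without a trend). Its tests were two-sided, with Benjamini-Hochberg adjustment over 22180 genes. Whether the fit would call differences of the size described here was not tested. Errors are SD of arrays or SE of the fit, with 2 residual degrees of freedom and 3.92 from the prior.

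The 10 genes and the role lists were chosen with earlier results of these data known. All 10 were to be named. From each role list the members that passed (up to 4) were named, or else the 2 with the largest difference (and any gene tied with them) among those at or above the median level in a group. The 3 genes nearest to Slc40a1 and the cell type markers followed. Where another gene is named, the text says so. Of the 90 other iron genes, 10 had no probe set of their own and were not analysed here.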

Additional observations from a re-analysis of the deposited data

How the results depend on the processing

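The fit was repeated with a trend or a robust variance prior, with arrays quantile normalized or centred on their medians, without genes under the median level, with probe sets averaged per gene or all kept, with the replicate number as a block, and without each array in turn. With the trend, limma called 101 genes in place of 0, 2 of the 8 iron genes in place of 0 (Slc40a1 and Tfrc), and 1 of the other iron genes in place of 0 (Hspa9), and the cause was not tested. A log2 difference of at least 1 was reached by 40 genes, none of them iron genes. Median centring moved Fth1 to 0.085. Under the other alternatives the counts of calls were 0. Leaving out 1 array at a time gave log2 differences of -1.12 to -0.8 for Slc40a1, -0.69 to -0.48 for Slc11a2, -0.47 to -0.36 for Tfrc, 0.37 to 0.62 for Hmox1, -0.4 to -0.06 for Hfe, -0.2 to -0.09 for Ireb2, 0.065 to 0.075 for Fth1 and -0.2 to 0.15 for Aco1, and a median of 0.06 to 0.07 for the other iron genes. A group left with a single array is then assumed to vary like the other. No label ties arrays of the same number to a culture or day, and the deviations of same-numbered arrays correlated at -0.02. With the replicate block, 0 of the 8 genes, 0 of the other iron genes and 0 genes in all passed (smallest adjusted p = 0.591). No measure of background is in the table, so dim probe sets such as those of Hamp, Heph and Cp cannot be called present or absent.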
